A study of Mus musculus with 6 samples.

Results

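The genes described here carry out fatty acid oxidation and ketone body formation in the liver, together with the nuclear receptor PPAR-alpha that controls many of them. They are a fixed list of 40 gene symbols: 2 regulators, 5 genes of fatty acid uptake and activation, 4 of the carnitine shuttle, 14 of mitochondrial and 6 of peroxisomal beta-oxidation, 5 acyl-CoA thioesterases, 2 of ketone body metabolism, and the PPAR-alpha targets Pdk4 and Vnn1. The list was matched by symbol to the deposited tables, which hold 22599 genes. All 40 symbols were found, and all 40 passed the filter on low counts, which kept 13205 genes.

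Bulk RNA sequencing measured mouse liver in 6 libraries. In 3 libraries the mice were NcoR1ΔHep, in which the corepressor NcoR1 is deleted in hepatocytes, which the labels also call a knockdown. The other 3 came from NcoR1fl/fl mice, which carry floxed Ncor1 alleles and which the labels call WT; they are named flox here. All mice had free access to chow and water, and all titles give 0 h, although ischemia-reperfusion is entered as the treatment throughout. Neither the Cre driver, nor age, sex or any surgery at 0 h, is given in the labels. Nor is it stated that the 3 libraries of a group are different mice. By the sex-linked transcripts given below, NcoR1ΔHep 1 came from a different mouse than NcoR1ΔHep 2 and NcoR1ΔHep 3. For the other libraries this is not known. The p-values cover library-to-library spread, which may be technical in part.

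Long-chain fatty acids enter the hepatocyte through carriers such as CD36, are bound by FABP1, and are activated to acyl-CoA by acyl-CoA synthetases. The carnitine shuttle carries the acyl groups into mitochondria, where repeated cycles of dehydrogenation, hydration, a second dehydrogenation and thiolysis release acetyl-CoA, much of which the fasting liver turns into ketone bodies. Peroxisomes run a parallel pathway for very long-chain and branched substrates and pass shortened chains on. PPAR-alpha binds DNA with RXR at direct repeats of a hexamer, and in the absence of activation it can recruit corepressors, NcoR1 among them.

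Total counts ran from 36975231 to 38470468 per library, and 16620 to 17770 genes had at least 1 count. Ncor1 itself had 5.34, 6.63 and 4.93 FPKM (fragments scaled by gene length and library total) in NcoR1ΔHep livers, against 6.78, 6.70 and 7.72 FPKM in flox livers. In FPKM the NcoR1ΔHep libraries all lay below the flox libraries, with a mean 20.3% lower, but on the scale of counts with TMM factors the groups overlapped, and the log2 fold change (NcoR1ΔHep over flox) of -0.31 did not pass edgeR's quasi-likelihood test (95% interval -0.80 to 0.17, adjusted p = 0.931). These values count reads over the whole gene, and the labels do not say which exons are deleted, so reads from remaining exons may be included. One library stood apart: NcoR1ΔHep 1 had 17138 counts of the female transcript Xist, against 6 to 18 in the other libraries, and 12 counts of the Y-linked Ddx3y, against 2008 to 6275. By these transcripts it differed in sex from the other 5 libraries, and fold changes of the genes that moved by over 1.5 times without it are given both ways.

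No gene of fatty acid oxidation or ketogenesis passed the threshold of an adjusted p under 0.05. Over all tested genes, edgeR called 0 of 13205 (0%) and DESeq2 called 5 of 20289 (0.0246%). At an unadjusted p under 0.05, edgeR took 443 genes (3.35%) and DESeq2 612 (3.02%). Among the 40 genes, 1 was higher in NcoR1ΔHep at that level (Acot3, 2.5% of the list), where 1.43% of tested genes were higher, and 0 were lower, where 1.92% were lower. By direction alone, 27 of the 40 genes had a fold change below 0, which is 67.5%, against 46.5% of all tested genes. The median log2 fold change of the 40 was -0.12, while that of all tested genes was 0.03. Without NcoR1ΔHep 1, 30 of the 40 were lower and the median was -0.08. On the log2 scale of CPM (counts scaled to library size), the list's median had a pooled standard deviation of 0.128 between libraries. The median fold change of -0.12 was about as large as that spread. For single genes, the median standard deviation within a group was 0.256 for the 40 genes and 0.297 for all tested genes.

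**Figure D1:**
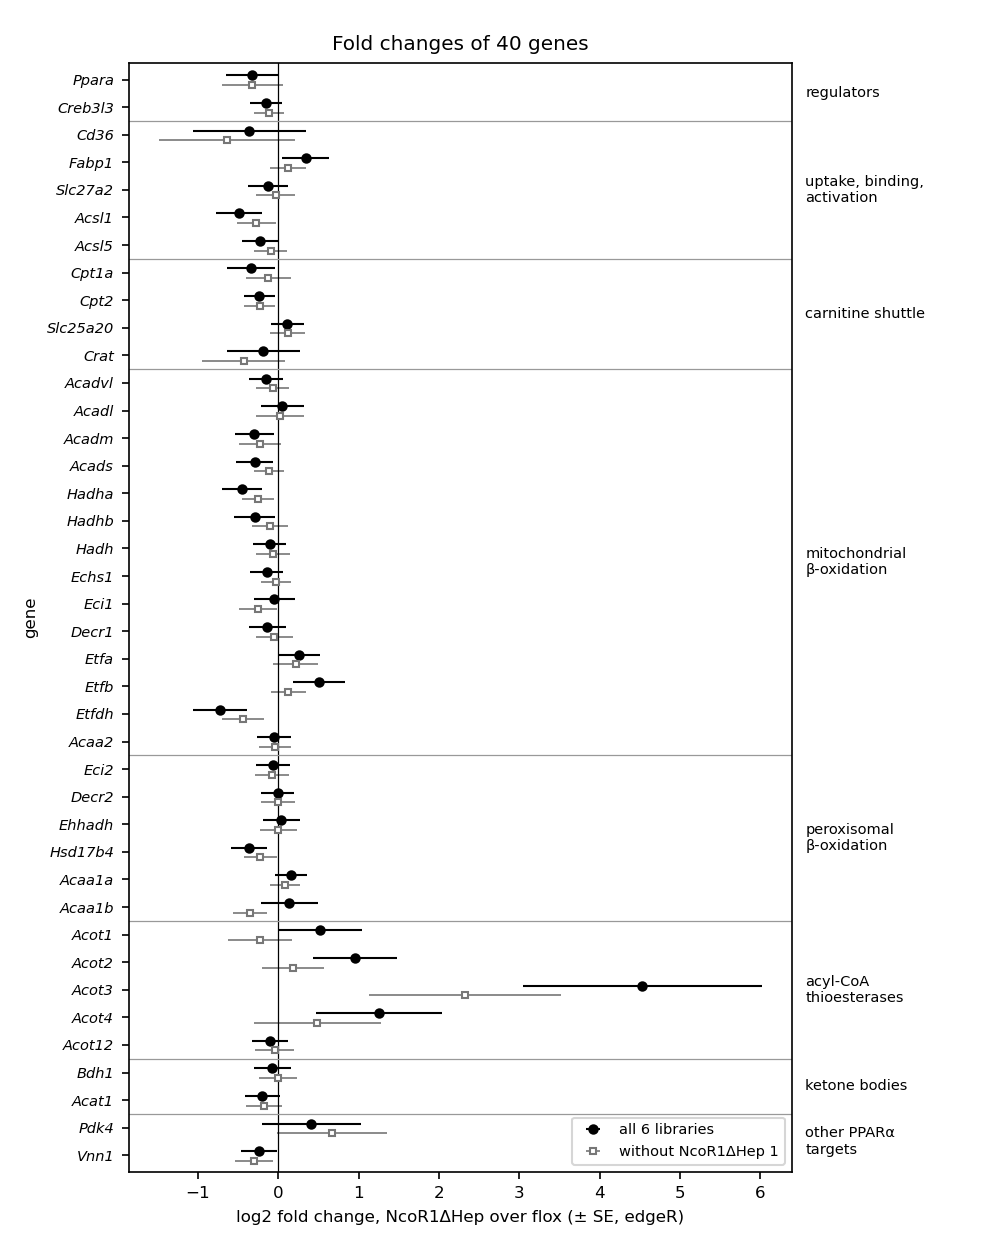
Log2 fold change (x axis, NcoR1ΔHep over flox) of each of the 40 genes (y axis, grouped by role), as a filled point with a bar of ± 1 SE over all 6 libraries, and as an open square with its SE without NcoR1ΔHep 1. Most values lie between -0.5 and 0.5 and below 0, while Acot3 stands at 4.53 with the widest bar.

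The groups did not overlap in FPKM for 5 genes, all lower in NcoR1ΔHep: Acsl1, Cpt2, Hadha, Etfdh and Hsd17b4. That is 12.5% of the list, where 4.95% of all tested genes had every NcoR1ΔHep library below every flox library. No gene of the list had every NcoR1ΔHep library above the flox libraries, as 2.61% of tested genes did. On the scale of CPM with TMM factors, which corrects for composition, 2 of the 5 remained without overlap, Cpt2 and Hadha, which is 5% of the list against 5.53% of tested genes; 0 of the 40 lay wholly above flox on that scale, against 3.29%.

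Both regulators had lower means in NcoR1ΔHep livers without passing the test. Ppara, the receptor gene, had 18.9, 10.6 and 21.0 FPKM in NcoR1ΔHep livers, against 20.8, 25.6 and 18.0 FPKM in flox livers. The low value was NcoR1ΔHep 2, the high one flox 2, and the groups overlapped. The means were 16.8 ± 5.49 FPKM in NcoR1ΔHep and 21.5 ± 3.87 FPKM in flox (SD, n = 3 each), with a log2 fold change of -0.32 (SE 0.33, edgeR adjusted p = 0.931). It was -0.33 without NcoR1ΔHep 1, -0.07 without NcoR1ΔHep 2, -0.62 without NcoR1ΔHep 3 and -0.11 without flox 2. Creb3l3 encodes CREB-H, a membrane-bound factor of the fasted liver that acts with PPAR-alpha. It had 105, 103 and 90.5 FPKM in NcoR1ΔHep livers, against 112, 103 and 120 FPKM in flox livers, and these ranges overlapped too. Its log2 fold change was -0.15 (SE 0.20, edgeR adjusted p = 0.943).

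Among the 5 genes of uptake and activation, 4 had a fold change below 0 and 0 passed the test. Acsl1, the main long-chain acyl-CoA synthetase of liver, had 105, 138 and 165 FPKM in NcoR1ΔHep livers, against 217, 204 and 169 FPKM in flox livers. The groups lay apart in FPKM, where NcoR1ΔHep 3 and flox 3 were close, but overlapped on the scale of CPM with TMM factors. The mean was 136 ± 29.9 FPKM in NcoR1ΔHep and 197 ± 24.8 FPKM in flox (SD, n = 3 each), and the log2 fold change was -0.49 (SE 0.29), or -0.27 without NcoR1ΔHep 1. Cd36, a membrane carrier of fatty acids, had 21.6, 4.85 and 17.5 FPKM in NcoR1ΔHep livers, against 38.6, 16.2 and 5.07 FPKM in flox livers. Both groups held 1 library near 5 FPKM, and the spread within flox exceeded the difference between means. The log2 fold change of Cd36 was -0.36 (SE 0.70), -0.64 without NcoR1ΔHep 1 and 0.40 without flox 1. Slc27a2, a transporter with very long-chain acyl-CoA synthetase activity, and Acsl5, a second synthetase, had log2 fold changes of -0.13 and -0.23, or -0.036 and -0.10 without NcoR1ΔHep 1.

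Fabp1, the liver fatty acid binding protein, was the most abundant gene of the list per length. It had 14873, 8467 and 8738 FPKM in NcoR1ΔHep livers, against 8759, 7409 and 9281 FPKM in flox livers, so that NcoR1ΔHep 1 alone stood above the rest. Its log2 fold change was 0.34 (SE 0.29), or 0.12 without that library. The promoter windows of RefSeq (assembly GRCm38.p6, 250 bases before to 50 after a start) were searched on both strands for the direct repeat that PPAR-alpha and RXR bind, and 34 of the 40 genes had a window. Its exact form, AGGTCANAGGTCA, was in none of the 34 and in 0.0396% of 32851 windows. A form with 1 free base in each hexamer, AGGNCANAGGNCA, was found in 1 gene, Fabp1. That is 2.94% of the 34 genes and 1 of their 38 windows, against 0.381% of all windows. The Fabp1 window is shown because it holds the repeat, in capitals and printed as its reverse complement, at -67 to -55 from the start. It lies at chr6:71199629-71199928 on the plus strand. The match is of letters only, and no binding was measured.
Fabp1: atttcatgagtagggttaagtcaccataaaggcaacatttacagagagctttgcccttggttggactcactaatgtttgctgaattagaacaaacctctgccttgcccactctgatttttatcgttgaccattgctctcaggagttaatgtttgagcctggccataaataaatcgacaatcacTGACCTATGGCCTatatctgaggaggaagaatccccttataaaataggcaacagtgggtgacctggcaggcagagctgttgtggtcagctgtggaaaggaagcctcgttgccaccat

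In the carnitine shuttle, 3 of 4 genes had a fold change below 0 and 0 passed the test. Cpt1a, which forms acylcarnitine at the outer membrane and is the regulated entry step, had 47.0, 53.8 and 78.0 FPKM in NcoR1ΔHep livers, against 77.0, 85.1 and 70.1 FPKM in flox livers. NcoR1ΔHep 3 lay within the flox range and the other NcoR1ΔHep libraries below it. The log2 fold change was -0.34 (SE 0.30), and -0.13 without NcoR1ΔHep 1. Cpt2, which turns acylcarnitine back into acyl-CoA at the inner membrane, had 44.8, 37.2 and 40.1 FPKM in NcoR1ΔHep livers, against 53.1, 47.4 and 45.7 FPKM in flox livers. Its groups lay apart, narrowly, at means of 40.7 ± 3.84 FPKM in NcoR1ΔHep and 48.7 ± 3.83 FPKM in flox (SD, n = 3 each). The log2 fold change of Cpt2 was -0.24 (SE 0.19) and stayed at -0.23 without NcoR1ΔHep 1. Slc25a20, the carnitine carrier of the inner membrane, had a log2 fold change of 0.11, and Crat, a carnitine acetyltransferase, of -0.19, or -0.43 without NcoR1ΔHep 1.

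**Figure D2:**
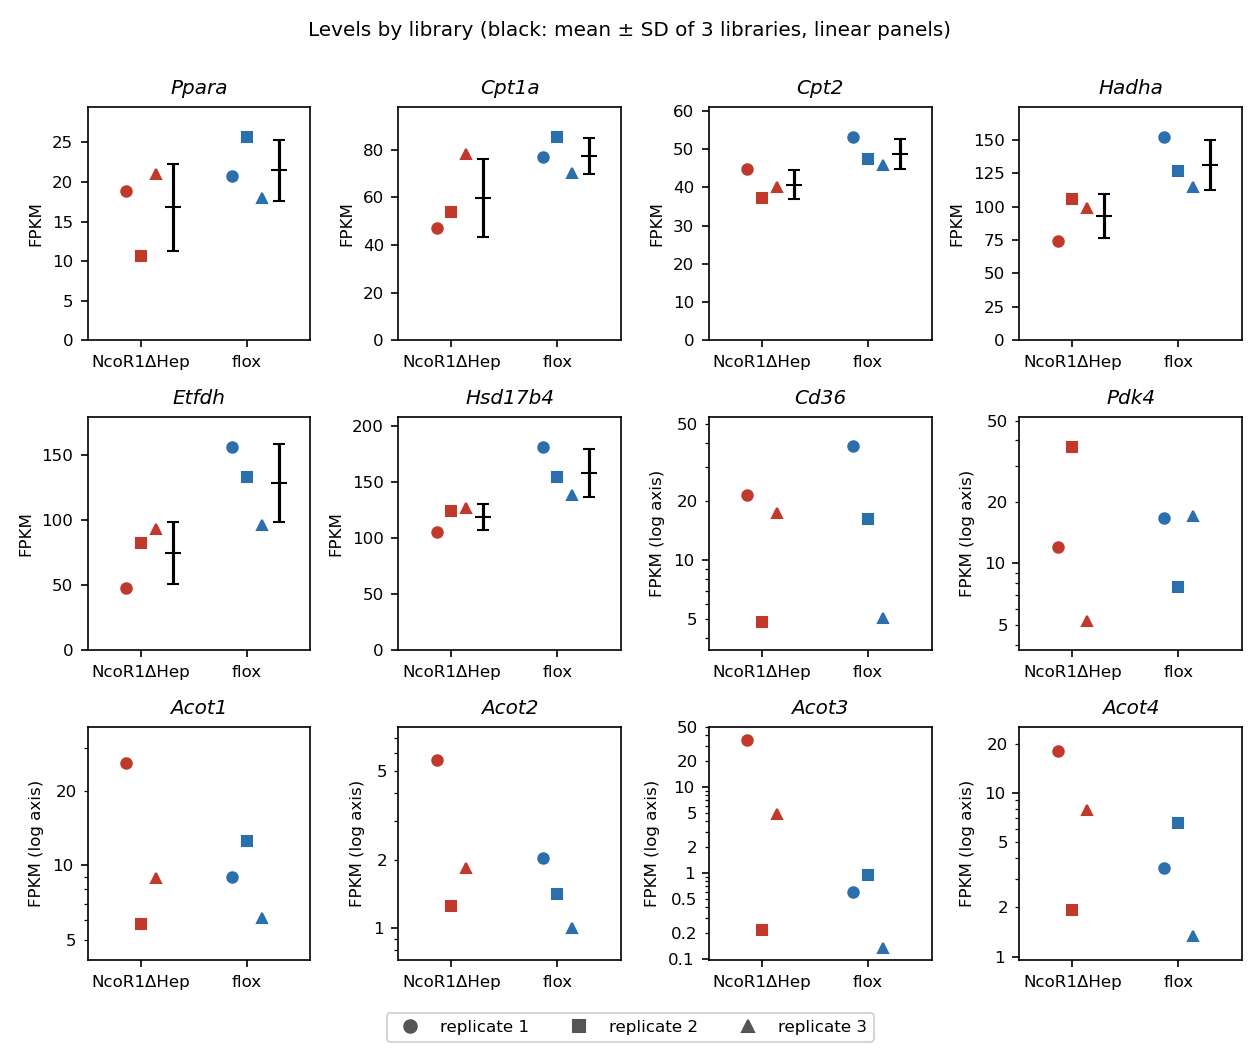
Level in each library (y axis, FPKM) of 12 of the genes, with NcoR1ΔHep libraries left of flox libraries and replicates by marker shape; black bars are mean ± SD in the panels with a linear axis from 0, and Cd36, Pdk4 and Acot1 to Acot4 have log axes. For Etfdh and Hadha all NcoR1ΔHep points lie below the flox points, while for Acot3 the NcoR1ΔHep points run from 0.218 to 35.8 FPKM and overlap the flox points.

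Of the 14 mitochondrial beta-oxidation genes, 11 had a fold change below 0, 3 had one above 0 and 0 passed the test; the median was -0.14, and -0.07 without NcoR1ΔHep 1. Etfdh had the most negative value of the list. It encodes the oxidoreductase that passes electrons from acyl-CoA dehydrogenases, by way of the electron transfer flavoprotein, to ubiquinone. It had 47.8, 82.7 and 93.6 FPKM in NcoR1ΔHep livers, against 156, 133 and 96.5 FPKM in flox livers. The 2 groups were separated in FPKM only by the small gap between NcoR1ΔHep 3 and flox 3, and overlapped on the scale of CPM with TMM factors. The mean was 41.9% lower, at 74.7 ± 23.9 FPKM in NcoR1ΔHep and 129 ± 30.1 FPKM in flox (SD, n = 3 each). The log2 fold change was -0.73 (SE 0.33, 95% interval -1.49 to 0.04, edgeR adjusted p = 0.931) and -0.44 without NcoR1ΔHep 1.

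The trifunctional protein catalyses the last 3 steps of the cycle for long chains, with its alpha subunit encoded by Hadha and its beta subunit by Hadhb. Hadha had 74.6, 106 and 98.6 FPKM in NcoR1ΔHep livers, against 152, 127 and 115 FPKM in flox livers, with no overlap. Its log2 fold change was -0.45 (SE 0.24, 95% interval -1.02 to 0.11), and -0.26 without NcoR1ΔHep 1. Hadhb had 18.7, 24.1 and 26.1 FPKM in NcoR1ΔHep livers, against 32.2, 30.9 and 23.5 FPKM in flox livers. Here flox 3 lay within the NcoR1ΔHep range, and the log2 fold change was -0.29, or -0.10 without NcoR1ΔHep 1. Both genes start from one shared stretch of chromosome 5 in opposite directions: their windows share 228 bases. The Hadha window, at chr5:30154931-30155230 on the minus strand, is shown for that reason; neither a hexamer AGGTCA nor a CCAAT box was found in it.
Hadha: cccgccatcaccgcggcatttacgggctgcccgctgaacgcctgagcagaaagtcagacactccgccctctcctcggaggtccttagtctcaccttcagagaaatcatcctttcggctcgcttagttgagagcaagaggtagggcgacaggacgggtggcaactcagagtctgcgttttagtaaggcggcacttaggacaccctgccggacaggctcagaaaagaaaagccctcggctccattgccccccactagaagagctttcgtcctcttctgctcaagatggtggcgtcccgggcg

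The 2 subunits of the electron transfer flavoprotein did not follow Etfdh. Etfb had 685, 331 and 294 FPKM in NcoR1ΔHep livers, against 284, 267 and 362 FPKM in flox livers, with NcoR1ΔHep 1 alone far above the rest. Its log2 fold change was 0.51, and 0.13 without that library. Etfa had 55.8, 36.4 and 50.5 FPKM in NcoR1ΔHep livers, against 37.9, 45.3 and 37.1 FPKM in flox livers, and overlapped, with a log2 fold change of 0.26.

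The acyl-CoA dehydrogenases start the cycle, each for a range of chain lengths. Their log2 fold changes were -0.15 for Acadvl (very long chains), 0.05 for Acadl (long), -0.30 for Acadm (medium) and -0.30 for Acads (short). Without NcoR1ΔHep 1 they were -0.073, 0.017, -0.23 and -0.12 in the same order. The later enzymes had log2 fold changes of -0.14 for the hydratase Echs1, -0.11 for the hydroxyacyl-CoA dehydrogenase Hadh and -0.05 for the thiolase Acaa2, or -0.026, -0.063 and -0.041 without NcoR1ΔHep 1. The auxiliary enzymes of unsaturated chains, Eci1 and Decr1, were at -0.05 and -0.14, or at -0.25 and -0.049 without that library. Acaa2 was the steadiest of the 14, its highest library being 1.21 times its lowest, while Etfdh had the widest range at 3.26 times.

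Of the 6 peroxisomal genes, 3 had a fold change below 0, 3 had one above 0 and 0 passed the test; the median was 0.02, and -0.04 without NcoR1ΔHep 1. Hsd17b4, the D-bifunctional protein that hydrates and oxidises peroxisomal enoyl-CoA, had 106, 124 and 127 FPKM in NcoR1ΔHep livers, against 181, 154 and 138 FPKM in flox livers. The groups did not overlap in FPKM but did on the scale of CPM with TMM factors. The means were 119 ± 11.6 FPKM in NcoR1ΔHep and 158 ± 21.5 FPKM in flox (SD, n = 3 each). Its log2 fold change was -0.37 (SE 0.23), and -0.23 without NcoR1ΔHep 1. Ehhadh, the L-bifunctional protein and a much used PPAR-alpha target, had 184, 182 and 114 FPKM in NcoR1ΔHep livers, against 165, 158 and 146 FPKM in flox livers. Its NcoR1ΔHep values lay on both sides of the flox values, and its log2 fold change was 0.04, or -0.0043 without NcoR1ΔHep 1. Eci2 and Decr2, which handle unsaturated chains, had values of -0.07 and -0.01.

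Peroxisomal thiolase is encoded in the mouse by Acaa1a and Acaa1b. Their coding sequences are 96.5% identical in GENCODE M21 transcripts, so how the authors' counting divided reads between the genes is uncertain. Acaa1b had 560, 221 and 221 FPKM in NcoR1ΔHep livers, against 364, 274 and 274 FPKM in flox livers. NcoR1ΔHep 1 was the highest library, and the other NcoR1ΔHep libraries were the lowest. The log2 fold change was therefore 0.13 (SE 0.35) with NcoR1ΔHep 1 and -0.35 without it. Acaa1a had 80.0, 61.2 and 58.9 FPKM in NcoR1ΔHep livers, against 64.5, 51.1 and 66.0 FPKM in flox livers, and overlapped, with a log2 fold change of 0.16 (SE 0.20), or 0.087 without NcoR1ΔHep 1.

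The peroxisomal and mitochondrial steps were then set side by side. The median log2 fold change of the peroxisomal list was 0.16 above that of the mitochondrial list. This difference was not tested. It was 0.03 without NcoR1ΔHep 1 and 0.27 without NcoR1ΔHep 3. In summed FPKM the 6 peroxisomal genes came to 1082, 715 and 653 in NcoR1ΔHep livers, against 923, 767 and 768 in flox livers. The 14 mitochondrial genes came to 2428, 2016 and 1969 FPKM in NcoR1ΔHep livers, against 2458, 2132 and 2117 FPKM in flox livers. Of these sums, Etfb alone gave 685, 331 and 294 FPKM in NcoR1ΔHep livers, against 284, 267 and 362 FPKM in flox livers. The high sum of NcoR1ΔHep 1 thus rested largely on Etfb, while 11 of the 14 genes had a fold change below 0. The ratio of peroxisomal to mitochondrial sums was 0.445, 0.355 and 0.331 in NcoR1ΔHep livers, against 0.376, 0.360 and 0.363 in flox livers. The flox ratios were close together while the NcoR1ΔHep ratios lay on both sides of them, at means of 0.377 ± 0.0602 in NcoR1ΔHep and 0.366 ± 0.00829 in flox (SD, n = 3 each). Without Acaa1b the ratios were 0.215, 0.245 and 0.219 in NcoR1ΔHep livers, against 0.228, 0.232 and 0.233 in flox livers, and NcoR1ΔHep 1 was then the lowest.

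**Figure D3:**
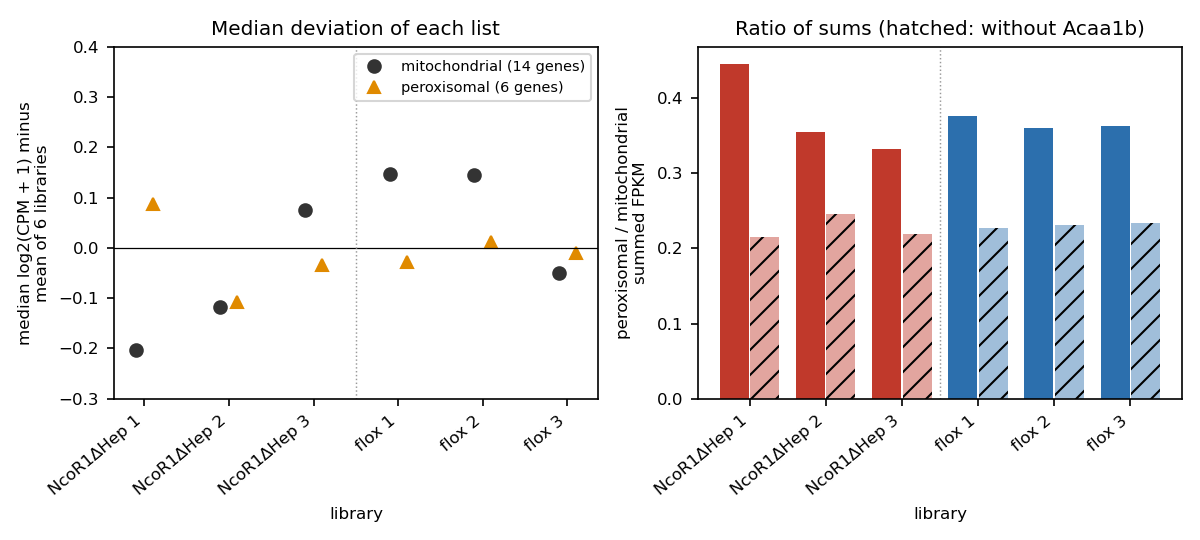
Left, each library's median log2(CPM + 1), as a difference from the gene means, for the mitochondrial (circles) and peroxisomal (triangles) lists (x axis, NcoR1ΔHep left of flox); right, ratio of summed peroxisomal to summed mitochondrial FPKM, with Acaa1b (plain bars) and without it (hatched bars). The flox ratios lie between 0.360 and 0.376 with Acaa1b, inside the NcoR1ΔHep range of 0.331 to 0.445.

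The acyl-CoA thioesterases, which hydrolyse acyl-CoA to free fatty acid and CoA, varied most. Acot1 (cytosolic), Acot2 (mitochondrial), Acot3 and Acot4 (both peroxisomal) are neighbours on chromosome 12 and known PPAR-alpha targets in mouse liver. Acot3 had 35.8, 0.218 and 4.83 FPKM in NcoR1ΔHep livers, against 0.598, 0.946 and 0.134 FPKM in flox livers. These values rested on 4613, 28 and 619 counts in NcoR1ΔHep and on 78, 125 and 17 counts in flox. NcoR1ΔHep 1 and 3 lay above all flox libraries, but NcoR1ΔHep 2 lay among them, and the highest library was 268 times the lowest. The log2 fold change was 4.53 (SE 1.49, 95% interval 1.11 to 7.95, edgeR adjusted p = 0.931), and DESeq2 did not call it after adjustment either. Without NcoR1ΔHep 1 the log2 fold change was 2.33.

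The other members of the cluster were likewise highest in NcoR1ΔHep 1. Acot4 had 18.0, 1.92 and 7.85 FPKM in NcoR1ΔHep livers, against 3.50, 6.55 and 1.33 FPKM in flox livers. Acot1 had 26.0, 5.76 and 8.89 FPKM in NcoR1ΔHep livers, against 8.95, 12.6 and 6.14 FPKM in flox livers. Acot2 had 5.59, 1.25 and 1.85 FPKM in NcoR1ΔHep livers, against 2.05, 1.42 and 1.01 FPKM in flox livers. In all 4 genes NcoR1ΔHep 2 and flox 3 were the lowest pair on the CPM scale, in either order, and the groups overlapped. The log2 fold changes were 1.25 (SE 0.78) for Acot4, 0.52 (SE 0.52) for Acot1 and 0.96 (SE 0.52) for Acot2. Without NcoR1ΔHep 1 they were 0.48, -0.23 and 0.18. Acot12, a cytosolic acetyl-CoA hydrolase encoded elsewhere, varied little and had a log2 fold change of -0.11, or -0.043 without that library. Leaving Acot1 to Acot4 out of the list, 27 of 36 genes were lower and the median was -0.14.

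The cluster's genes resemble each other, so reads may be divided between them in a way the tables do not show. Coding sequences were 95.2% identical between Acot1 and Acot2, 83.9% between Acot1 and Acot3, and 75.9% between Acot3 and Acot4. Their promoter windows are shown because these genes varied together across libraries. Capitals mark the hexamer AGGTCA or its reverse complement TGACCT and the CCAAT box or its reverse complement ATTGG. The windows are on the plus strand at chr12:84009252-84009551 for Acot1, chr12:83987611-83987910 for Acot2, chr12:84051894-84052193 for Acot3 (1 of its 2 windows) and chr12:84038129-84038428 for Acot4.
Acot1: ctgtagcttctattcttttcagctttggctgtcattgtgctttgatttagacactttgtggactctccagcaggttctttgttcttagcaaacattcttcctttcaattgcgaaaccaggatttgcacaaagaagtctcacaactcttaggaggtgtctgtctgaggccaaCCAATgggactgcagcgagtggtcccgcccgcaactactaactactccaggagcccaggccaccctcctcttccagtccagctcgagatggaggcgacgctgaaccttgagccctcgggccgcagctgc
Acot2: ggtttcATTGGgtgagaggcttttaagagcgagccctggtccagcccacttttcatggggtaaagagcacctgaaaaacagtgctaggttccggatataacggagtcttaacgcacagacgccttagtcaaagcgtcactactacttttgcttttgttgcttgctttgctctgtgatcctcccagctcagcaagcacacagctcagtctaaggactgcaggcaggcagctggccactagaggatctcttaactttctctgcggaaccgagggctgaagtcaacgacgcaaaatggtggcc
Acot3: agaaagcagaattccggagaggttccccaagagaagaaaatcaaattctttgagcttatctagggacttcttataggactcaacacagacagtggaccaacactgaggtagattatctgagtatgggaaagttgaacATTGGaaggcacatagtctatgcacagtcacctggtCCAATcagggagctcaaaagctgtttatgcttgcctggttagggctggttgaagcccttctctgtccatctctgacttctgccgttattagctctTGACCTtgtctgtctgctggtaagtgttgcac
Acot4: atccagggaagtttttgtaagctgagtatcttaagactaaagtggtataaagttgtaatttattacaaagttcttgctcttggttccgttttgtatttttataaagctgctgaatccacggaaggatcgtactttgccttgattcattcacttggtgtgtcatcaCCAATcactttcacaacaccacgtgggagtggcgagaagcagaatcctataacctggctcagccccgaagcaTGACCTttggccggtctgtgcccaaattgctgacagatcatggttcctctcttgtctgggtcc

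A CCAAT box lay at -79 to -75 from the start in Acot1, at -77 to -73 in Acot3 and at -85 to -81 in Acot4, and in Acot2 its reverse complement lay at -244 to -240. The hexamer was in the windows of Acot3, 18 to 23 bases after the start, and of Acot4, at -13 to -8. Over the whole list, 11 of the 34 genes with a window held the hexamer (32.4%), in 12 of their 38 windows. A CCAAT box was held by 18 genes (52.9%), in 19 of the 38 windows. Of all windows, 16.3% held the hexamer and 37.4% a CCAAT box. A gene was counted if any of its windows matched, so these shares of genes and of windows are unlike measures. Hexamers of 6 letters occur often, overlap the repeats searched above, and were not tested for use.

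Ketone body metabolism was represented by Bdh1, which reduces acetoacetate to beta-hydroxybutyrate, and Acat1, the mitochondrial acetoacetyl-CoA thiolase. Bdh1 had 73.4, 67.0 and 78.6 FPKM in NcoR1ΔHep livers, against 84.8, 83.4 and 67.0 FPKM in flox livers. Acat1 had 115, 98.5 and 109 FPKM in NcoR1ΔHep livers, against 150, 123 and 107 FPKM in flox livers. Flox 1 was the highest library for both, and the groups overlapped for both. The log2 fold changes were -0.07 for Bdh1 (edgeR adjusted p = 0.979) and -0.20 for Acat1, or -0.0055 and -0.18 without NcoR1ΔHep 1. Pdk4, the kinase that shuts off pyruvate dehydrogenase in fasting, had 12.1, 37.2 and 5.25 FPKM in NcoR1ΔHep livers, against 16.7, 7.64 and 17.0 FPKM in flox livers. NcoR1ΔHep held both its highest and its lowest library, and the log2 fold change was 0.41 (SE 0.62, edgeR adjusted p = 0.949), 0.67 without NcoR1ΔHep 1 and -0.66 without NcoR1ΔHep 2. Vnn1, a pantetheinase, had 35.0, 26.0 and 27.4 FPKM in NcoR1ΔHep livers, against 45.8, 33.3 and 27.5 FPKM in flox livers, with a log2 fold change of -0.24.

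**Figure D4:**
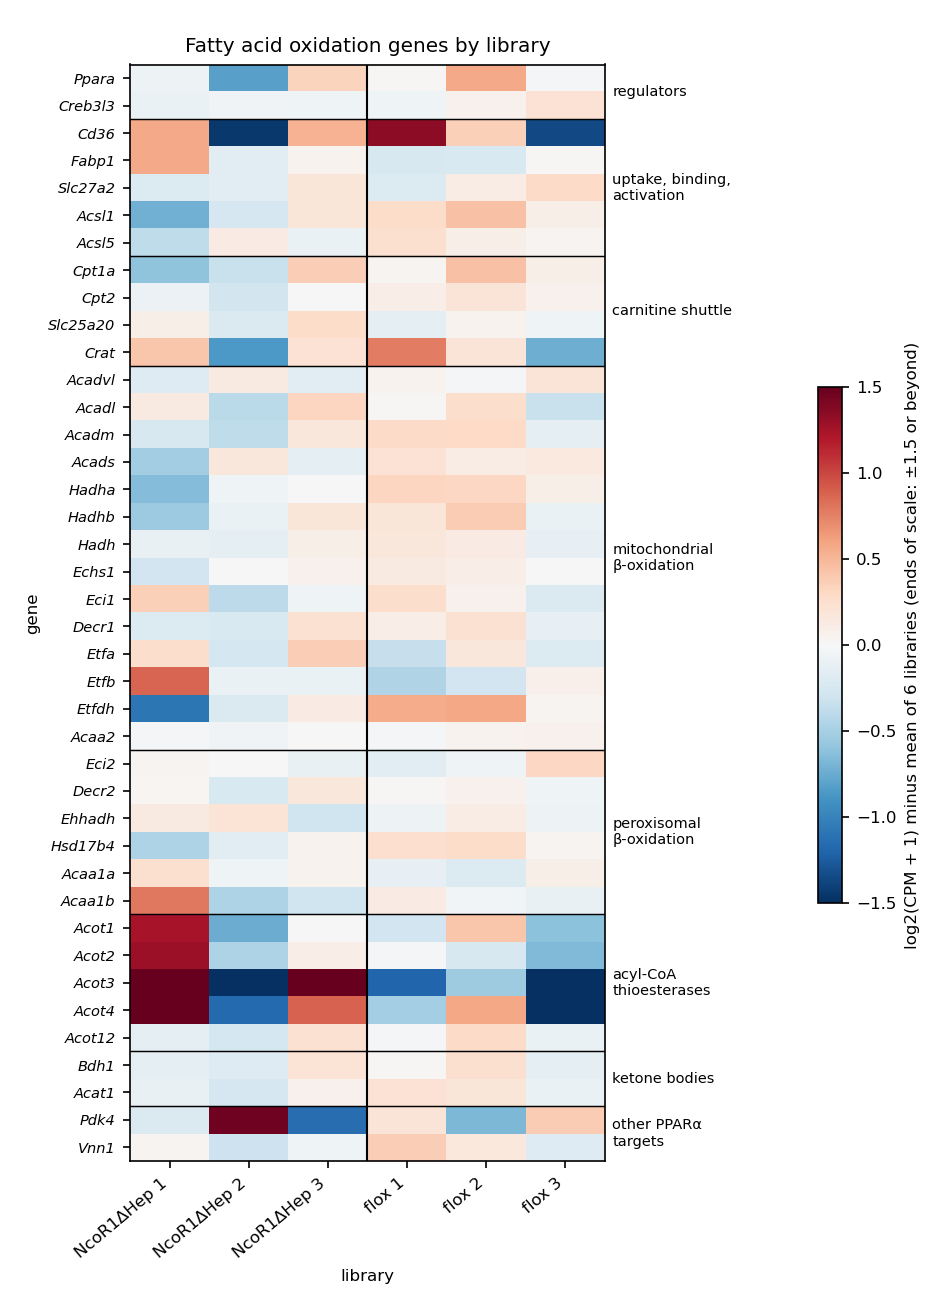
Log2(CPM + 1) of each of the 40 genes (rows, by role) in each library (columns, NcoR1ΔHep left of flox) as the difference from the gene's mean over the 6 libraries, red where higher and blue where lower, with colours saturated at 1.5 in either direction. Acot1 to Acot4 are red in NcoR1ΔHep 1 and blue in NcoR1ΔHep 2 and flox 3.

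Across libraries, most of the 40 genes were steady and a few were not. The highest library was less than 2 times the lowest for 26 genes (65%). It was more than 3 times the lowest for 8 genes (20%), namely Cd36, Crat, Etfdh, Pdk4 and Acot1 to Acot4. On the scale of CPM + 1, a range over 3 times was met by 20% of the list and by 8.96% of all tested genes. NcoR1ΔHep 2 was the lowest library on the CPM scale for 18 of the 40 genes, where it was lowest for 11.4% of all tested genes. NcoR1ΔHep 2 and flox 3, from different groups, were the lowest pair for 12 of the 40 (30%, against 7.82% of tested genes), among them Cd36, Crat, Acadl, Eci1, Vnn1 and Acot1 to Acot4. NcoR1ΔHep 1 and NcoR1ΔHep 2 were the lowest pair for another 12 (30%, against 9.50%), among them Ppara, Acsl1, Cpt1a, Cpt2, Acadm, Hadha, Etfdh, Hsd17b4 and Acat1. Flox 1 and flox 2 were the highest pair for 10 (25%, against 9.70%).

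Genes of the same pathways outside the list were not called either. Of 22 further peroxisomal genes, 15 had a fold change below 0, 7 had one above 0, 0 passed the test, and the median was -0.14 (-0.03 without NcoR1ΔHep 1). The lowest unadjusted p-values among them belonged to Hacl1, of alpha-oxidation, and Acox2, the branched-chain acyl-CoA oxidase. Hacl1 had 57.6, 57.5 and 57.0 FPKM in NcoR1ΔHep livers, against 98.8, 98.8 and 57.9 FPKM in flox livers, so that flox 3 lay beside the NcoR1ΔHep libraries (log2 fold change -0.54, SE 0.26). Acox2 had 33.0, 51.9 and 48.8 FPKM in NcoR1ΔHep livers, against 71.5, 57.0 and 58.4 FPKM in flox livers (log2 fold change -0.44, SE 0.26, and -0.21 without NcoR1ΔHep 1).

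Of 20 further PPAR-alpha targets, 14 had a fold change below 0, 6 had one above 0, 0 passed the test, and the median was -0.27 (-0.17 without NcoR1ΔHep 1). Acad11, an acyl-CoA dehydrogenase, had 39.6, 61.9 and 68.3 FPKM in NcoR1ΔHep livers, against 106, 95.3 and 77.9 FPKM in flox livers (log2 fold change -0.67, SE 0.29, and -0.41 without NcoR1ΔHep 1). Plin5, a lipid droplet protein of oxidative tissue, had 9.09, 11.7 and 8.32 FPKM in NcoR1ΔHep livers, against 12.7, 11.7 and 16.1 FPKM in flox livers. The groups overlapped, and its log2 fold change was -0.46 (SE 0.23). Of 8 further ketogenic and mitochondrial genes, 6 were below 0, 2 were above 0, 0 passed, and the median was -0.17. Acad12, an acyl-CoA dehydrogenase, had 0.926, 2.40 and 1.26 FPKM in NcoR1ΔHep livers, against 4.80, 2.30 and 1.72 FPKM in flox livers. Only flox 1 lay above the NcoR1ΔHep range. The log2 fold change of Acad12 was -0.88 (SE 0.46), or -0.58 without NcoR1ΔHep 1. Of 10 partners of PPAR-alpha, 6 were above 0, 4 were below 0 and 0 passed. The coactivator Ppargc1b had 0.754, 0.668 and 0.888 FPKM in NcoR1ΔHep livers, against 0.293, 0.517 and 0.597 FPKM in flox livers (log2 fold change 0.72, SE 0.35). The related receptor Ppard had 1.33, 0.920 and 0.616 FPKM in NcoR1ΔHep livers, against 3.25, 0.955 and 1.27 FPKM in flox livers. Its log2 fold change was -0.88 (SE 0.45), and only flox 1 lay above the NcoR1ΔHep range.

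The libraries also differed in other properties, and their part in the values above was not tested. In bulk tissue, fewer cells of a type and less RNA per cell cannot be told apart. Of 8 hepatocyte markers, 4 were higher and 4 lower, and their median log2 fold change was 0.10. Tat, the 1 of them under an unadjusted edgeR p of 0.05, had 436, 326 and 413 FPKM in NcoR1ΔHep livers, against 217, 205 and 291 FPKM in flox livers (log2 fold change 0.74). Of 12 markers of sinusoidal endothelium, 11 were lower (91.7%, against 46.5% of all tested genes). At an unadjusted edgeR p under 0.05, 3 of the 12 were lower, as were 1.92% of all tested genes, and 0 passed after adjustment. Their median log2 fold change was -0.72, or -1.04 without NcoR1ΔHep 1. Their summed level was 113, 63.9 and 45.2 FPKM in NcoR1ΔHep livers, against 180.5, 67.4 and 104 FPKM in flox livers. Of 10 Kupffer cell markers, 8 were lower, with sums of 225, 335 and 130.5 FPKM in NcoR1ΔHep livers, against 304, 198 and 313 FPKM in flox livers. NcoR1ΔHep 2, lowest on the CPM scale for 18 of the 40 genes, had the highest Kupffer sum. Flox 3 and flox 1 had the next highest sums and were lowest for 3 and 4 of the 40. NcoR1ΔHep 1, with a sum of 225 FPKM, was lowest for 12. Of 10 stellate cell markers, 9 were higher, with sums of 245, 188.5 and 151 FPKM in NcoR1ΔHep livers, against 154, 134 and 134 FPKM in flox livers. Most of each sum was Dcn and Ecm1. Dcn had 107, 80.6 and 90.6 FPKM in NcoR1ΔHep livers, against 71.0, 80.8 and 60.2 FPKM in flox livers. Ecm1 had 113, 48.8 and 24.2 FPKM in NcoR1ΔHep livers, against 28.7, 21.7 and 40.2 FPKM in flox livers. The median log2 fold change of the 10 markers was 0.09, and 0.35 without NcoR1ΔHep 1. Cholangiocyte markers summed to 35.7, 102 and 21.9 FPKM in NcoR1ΔHep livers, against 25.4, 25.0 and 33.6 FPKM in flox livers. Nearly all of that sum was Spp1, at 33.7, 99.0 and 21.0 FPKM in NcoR1ΔHep livers, against 23.3, 24.0 and 32.7 FPKM in flox livers. Krt19 was, like Spp1, highest in NcoR1ΔHep 2 (1.21 FPKM), while Epcam was highest in NcoR1ΔHep 1 and Sox9 in flox 1. Of these 4 tested markers, 3 were higher and 1 lower, and Epcam alone had an unadjusted edgeR p under 0.05. Of the adipocyte markers, Ucp1 was at 0 in all libraries and Adipoq and Plin1 were at most 0.307 and 0.013 FPKM, while Cidec, which steatotic liver also expresses, had 0.395, 0.489 and 3.22 FPKM in NcoR1ΔHep livers, against 20.5, 0.415 and 0.570 FPKM in flox livers. Among 16 tested genes of the circadian clock and its output, 13 were higher, with sums of 273, 167 and 182 FPKM in NcoR1ΔHep livers, against 79.0, 105 and 198 FPKM in flox livers. Arntl, which encodes the clock factor BMAL1, was lower and was 1 of the 5 genes DESeq2 called (DESeq2 adjusted p = 0.0317, edgeR adjusted p = 0.931). It had 0.0305, 0.108 and 0.0709 FPKM in NcoR1ΔHep livers, against 1.29, 0.702 and 0.0983 FPKM in flox livers, and flox 3 overlapped.

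Transcript length moved with the libraries as well. The median log2 fold change of tested genes was 0.29 for gene lengths up to 1000 bases and -0.07 for those over 6000 bases. The median gene of the list was 2384 bases long, of the mitochondrial list 2005, of the peroxisomal list 2468.5, and of all tested genes 3553. With gene length fitted as an offset, an alternative added after the data were seen, 28 of the 40 genes had a fold change below 0 and the median was -0.17. In that fit the median was -0.21 for the mitochondrial list, with 12 of 14 genes below 0, and -0.00 for the peroxisomal list, so that they lay 0.20 apart. Etfdh was at -0.77, Hadha at -0.47 and Acot3 at 4.58 (again under 0.05 before adjustment), while Fabp1 moved to 0.00.

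**Figure D5:**
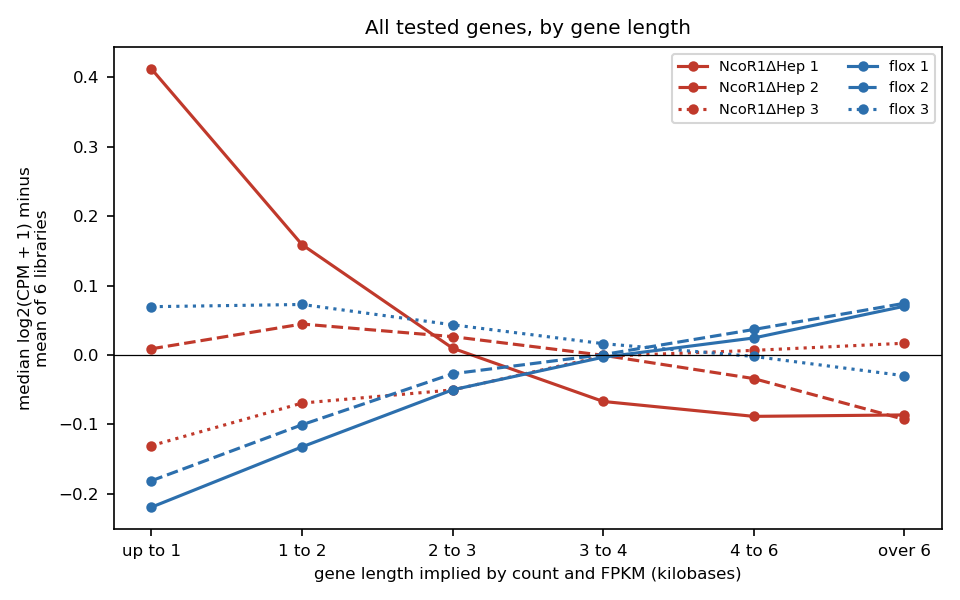
Median deviation of log2(CPM + 1) of tested genes from their mean over all libraries (y axis) in 6 classes of gene length in kilobases (x axis), 1 line per library. NcoR1ΔHep 1 runs from 0.41 for the shortest genes to -0.09 for the longest, and flox 1 from -0.22 to 0.07.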

How the data were processed

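Liver RNA of 3 NcoR1ΔHep and 3 flox libraries was sequenced. Total RNA was isolated on Qiagen columns and converted with a SMARTer mRNA library kit, per the labels' protocols. The authors deposited whole-number counts per gene symbol, not normalized. The authors also deposited FPKM, which equal counts scaled by a gene length and the library total (the implied length was whole within 0.01 in 100% of 12656 genes). Builds GRCm38, mm10 and hg38 are named per the submitters' processing notes; the aligner, the counter and its strandedness: not given in the sources used here.

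Counts were tested with edgeR 4.0.16 (R 4.3.3): filterByExpr (minimum count 10, total 15; 13205 genes), TMM factors, two-sided quasi-likelihood test, Benjamini-Hochberg adjustment over all tested genes, threshold 0.05. Each fold change is a log2 ratio, NcoR1ΔHep over flox. Levels are the deposited FPKM, given per library or as mean ± SD. Genes named with full values were Ncor1, Ppara, Cpt1a, members whose groups did not overlap and the near-identical paralogs. The 2 members of each role and each further list with the smallest p were named likewise. Cd36, Hadhb, Ehhadh, Etfa, Etfb, Tat, Dcn, Ecm1, Spp1, Krt19, Epcam, Sox9, Cidec and Arntl were added after their values were seen. One gene that this rule names is not reported here. The members and lists were chosen with earlier results of these data known. Alternatives were DESeq2 1.42.0, other scaling and filters, limma 3.58.1 on log2 FPKM, the replicate number as a block, each library left out and, added later, a length offset. The fit was tested on simulated data. Promoter windows come from RefSeq, assembly GRCm38.p6, read with Python 3.11.15; coding identity was computed from the longest open reading frames of GENCODE M21 transcripts with Biopython 1.88.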

Additional observations from a re-analysis of the deposited data

How the results depend on the processing

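No member passed the threshold under any of the 16 alternatives to the count test, and over all genes only DESeq2 made calls (5 genes). The count of members with an unadjusted p under 0.05 and a higher level, 1 in edgeR, was 0 with the 3 limma fits on log2 FPKM and with the replicate block, and ran from 0 to 3 with each library left out. The count with a lower level, 0 in edgeR, was 1 with total counts as the only scaling, 1 with limma at a pseudocount of 1 and at 0.1, 4 with limma and no filter (Acsl1, Etfdh, Hadha and Hsd17b4), and 0 to 3 with each library left out. The number of members with a fold change below 0 stayed between 23 and 30 in all alternatives, and their median between -0.21 and -0.07.

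Of the 40 members, 13 turned sign in at least 1 alternative: 20 times with a library left out and 5 times otherwise. The cause was not tested. Without NcoR1ΔHep 1, Acaa1b was at -0.35, Acot1 at -0.23 and Ehhadh at -0.0043. Without NcoR1ΔHep 2, Cd36 was at 0.053, Crat at 0.12, Eci1 at 0.11, Decr2 at 0.093, Ehhadh at -0.062 and Pdk4 at -0.66. Without NcoR1ΔHep 3, Slc25a20 was at -0.015 and Acadl at -0.12. Without flox 1, Cd36 was at 0.40, Crat at 0.23, Eci1 at 0.076 and Decr2 at 0.011. Without flox 2, Decr2 was at 0.018, Acot12 at 0.020 and Bdh1 at 0.031. Without flox 3, Acadl was at -0.10 and Eci2 at 0.092. With the length offset Acadl was at -0.028, and Decr2 was at 0.00036 in DESeq2, 0.0058 with RLE factors and 0.0061 without a filter.

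Over the libraries left out, values ran from -0.35 to 0.35 for Acaa1b, -0.12 to 0.22 for Acadl, -0.23 to 0.89 for Acot1, -0.27 to 0.020 for Acot12, -0.22 to 0.031 for Bdh1, -0.82 to 0.40 for Cd36, -0.51 to 0.23 for Crat, -0.11 to 0.093 for Decr2, -0.25 to 0.11 for Eci1, -0.15 to 0.092 for Eci2, -0.062 to 0.17 for Ehhadh, -0.66 to 0.82 for Pdk4 and -0.015 to 0.23 for Slc25a20. Acot3 ran from 2.33 to 5.25 and Etfdh from -1.02 to -0.44, with no change of sign. The difference of the peroxisomal and mitochondrial medians ran from 0.03 to 0.27 over all alternatives, list membership included.

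Same-numbered libraries correlated at 0.02, -0.38 and -0.52 once each group's mean was removed. Differently numbered libraries were not set beside them, so these values cannot show whether the replicate numbers mark a pairing. With the replicate block, 28 members had a fold change below 0, the median was -0.12 and Pdk4 stood at -0.0030. The lowest count behind any member was 17, for Acot3 in flox 3.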

Other observations

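Further PPAR-alpha targets were examined outside the rule for named genes and were chosen after their values were seen. The omega-hydroxylase genes Cyp4a10 and Cyp4a14, which start the breakdown of fatty acids from the other end, had the same low libraries as Cd36 and Acot1 to Acot4. Cyp4a10 had 247, 78.4 and 229 FPKM in NcoR1ΔHep livers, against 290, 270 and 69.2 FPKM in flox livers. Cyp4a14 had 149, 39.0 and 126 FPKM in NcoR1ΔHep livers, against 220, 196 and 33.7 FPKM in flox livers. Aldh3a2, a fatty aldehyde dehydrogenase, had 41.4, 14.6 and 44.0 FPKM in NcoR1ΔHep livers, against 49.4, 43.2 and 18.5 FPKM in flox livers. In all 3 genes NcoR1ΔHep 2 and flox 3 stood below the other libraries. They were the only 3 of the 20 further targets with that lowest pair (15%, against 7.82% of tested genes); NcoR1ΔHep 1 and NcoR1ΔHep 2 were the lowest pair of 4. Cyp4a12a, a male-biased member of the same family, had 0.209, 66.7 and 87.6 FPKM in NcoR1ΔHep livers, against 115, 99.2 and 64.2 FPKM in flox livers. Its low library was NcoR1ΔHep 1, the library with Xist counts.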
